A study of Homo sapiens with 30 samples.

Results

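The data described here are the levels of 8 long non-coding RNAs (lncRNAs) in 30 RNA-seq libraries of human cells exposed to soot and secondary organic aerosol. MALAT1 and NEAT1 act in the nucleus, GAS5, ZFAS1, SNHG1, SNHG12 and SNHG15 are host genes of small nucleolar RNAs (snoRNAs), and HIF1A-AS3 is an antisense transcript of the HIF1A locus. The members were found by gene symbol, and all 8 of them are among the 18460 genes in the count table of each cell line. The set was selected on results of these same libraries: MALAT1 and HIF1A-AS3 were known for their differences between aerosol and clean air in A549 cells, and which values weighed for the other 6 is not recorded. The differences from clean air are therefore given as a description without p-values, and tests are kept for the comparisons between aerosols and for the level of the cell lines in clean air.

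Cocultures at the air-liquid interface held A549 cells, a human lung carcinoma epithelial line, on the apical side of an insert and EA.hy926 cells, a human endothelial hybrid line made from umbilical vein cells and A549, on the basolateral side. A549 cells faced the aerosol directly. Each coculture was exposed for 4 h to clean air (CA), soot particles (SP), soot coated with the oxidation products of β-pinene (SOAβPIN-SP) or soot coated with those of naphthalene (SOANAP-SP), and both cell lines of an insert were sequenced after poly-A selection. CA, SOAβPIN-SP and SOANAP-SP had 4 libraries per cell line and SP had 3. The 15 cocultures came from 12 experiments, and no experiment held different aerosols, so an aerosol and its experiments cannot be told apart. A CA library shared its experiment with 1 library of each aerosol, which gave 1 within-experiment pair per aerosol and cell line. The aerosols also differed in the mass deposited on the cells. SP were used without a precursor and without ageing, and particles were delivered together with the gas phase. Replicates of a group were separate exposures, and each cell line is a single established line.

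MALAT1 is an abundant RNA of nuclear speckles, the bodies that store splicing factors. NEAT1 is the scaffold of paraspeckles, nuclear bodies that assemble on its long isoform and retain proteins and RNAs. A snoRNA host gene is transcribed and spliced, and snoRNAs, which guide the chemical modification of ribosomal RNA, are released from its introns. The spliced host RNAs carry many stop codons and are known substrates of nonsense-mediated decay, so their level depends on translation, and hosts such as GAS5 accumulate in growth-arrested cells. Many hosts start with a C followed by pyrimidines, the terminal oligopyrimidine (TOP) start that they share with ribosomal protein genes.

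The capture of MALAT1 and NEAT1 in poly-A libraries depends on their 3′ ends, which are shown first. MALAT1 and the long isoform of NEAT1 do not end in a poly-A tail. They are cut upstream of a tRNA-like RNA and keep a genome-encoded A-rich tract that folds into a triple helix. The tracts lie on the plus strand of chromosome 11 in GRCh38, at chr11:65506072-65506131 for MALAT1 and chr11:65445496-65445540 for NEAT1, and capitals mark the A-rich run.
MALAT1: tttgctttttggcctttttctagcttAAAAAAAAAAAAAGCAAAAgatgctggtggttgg
NEAT1: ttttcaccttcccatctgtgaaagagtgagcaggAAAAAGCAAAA
In GENCODE v44 a 57-base small RNA gene begins at base 65506117, the base after the MALAT1 tract, and the NEAT1 tract ends at the last base of the gene. MALAT1 is annotated at chr11:65497640-65508073 and NEAT1 at chr11:65422774-65445540, both on the plus strand and 1 exon each in the canonical transcript.

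The starts of the canonical transcripts of GAS5 (chromosome 1, minus strand, start at base 173867989) and ZFAS1 (chromosome 20, plus strand, start at base 49278642) are shown because both have a TOP-like start. Capitals mark the leading pyrimidines.
GAS5: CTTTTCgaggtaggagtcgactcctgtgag
ZFAS1: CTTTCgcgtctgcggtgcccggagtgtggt
Of the canonical transcripts of 18395 genes in the count table, 4.65% start with a C and at least 4 further pyrimidines. Among the 5 snoRNA hosts, GAS5, ZFAS1 and SNHG12 do so and SNHG1 and SNHG15 do not in this annotation.

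RefSeq promoter windows of GRCh38.p14, from 250 bases before to 50 bases after a start, were found for 6 of the 8 lncRNAs, with a pair of windows for MALAT1. NEAT1 and SNHG15 had none. Each window was searched on both strands for ACGTG (the core of the hypoxia response element), TGACTCA (the AP-1 site), TGACGTCA (the cAMP response element), TGACNNNGC (the core of the antioxidant response element) and CACGTG (the E-box of MYC). Matches were found in 2 windows only, that of HIF1A-AS3 at chr14:61751048-61751347 on the minus strand and the upstream window of MALAT1 at chr11:65497488-65497787 on the plus strand. Both are printed because these are the lncRNAs that differed most from clean air. Capitals mark ACGTG, here in its reverse complement, in HIF1A-AS3, and TGACNNNGC or its reverse complement in MALAT1.
HIF1A-AS3: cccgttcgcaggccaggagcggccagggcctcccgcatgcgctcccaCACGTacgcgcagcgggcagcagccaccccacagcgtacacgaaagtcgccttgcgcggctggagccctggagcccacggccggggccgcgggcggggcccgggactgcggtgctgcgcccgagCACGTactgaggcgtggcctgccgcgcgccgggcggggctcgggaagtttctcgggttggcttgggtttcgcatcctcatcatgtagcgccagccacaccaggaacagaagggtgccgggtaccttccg
MALAT1: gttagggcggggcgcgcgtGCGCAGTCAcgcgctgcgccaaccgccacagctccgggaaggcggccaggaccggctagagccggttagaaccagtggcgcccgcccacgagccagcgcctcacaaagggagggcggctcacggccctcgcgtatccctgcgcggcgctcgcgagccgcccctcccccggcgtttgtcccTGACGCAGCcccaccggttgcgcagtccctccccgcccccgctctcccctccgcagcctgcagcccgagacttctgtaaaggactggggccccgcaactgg
The ACGTG core was present in 21.4% and TGACNNNGC in 13.3% of all 35116 promoter windows, so such matches are frequent. TGACTCA was present in 4.95%, TGACGTCA in 1.85% and CACGTG in 7.26% of all windows. A match describes the letters only.

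The depth was 7317041 to 15012539 gene counts in the A549 libraries and 10003314 to 16610686 in those of EA.hy926 cells. Levels are given as CPM, the counts relative to the library size after TMM scaling. Values of single marker genes are CPM without that scaling. Of the defining markers, the keratin KRT8 had a median of 9780 CPM in A549 cells and the endothelial genes CDH5 and ENG had medians of 229 and 2180 CPM in EA.hy926 cells. The keratins KRT8 and KRT18 were also present in EA.hy926 cells, with medians of 573 and 415 CPM. EPCAM, KRT19, CDH1, MUC1 and CEACAM6 had medians of at most 0.431 CPM there. VWF, also a defining endothelial gene, was low there (0.656 to 2.47 CPM) and had a median of 0 in A549 cells. The summed level of 7 epithelial markers in A549 cells was 11880 to 13080 CPM in CA and 13110 to 16770 CPM over the 3 aerosols, and that of 7 endothelial markers was 79.4 to 135 CPM over all A549 libraries, mostly EGFL7. KRT19 rose in A549 cells after SP and SOAβPIN-SP, and 4 of the 7 epithelial markers rose after SOANAP-SP. The part of these shifts in the results below was not tested. In bulk RNA a change in the number of expressing cells and a change of RNA per cell cannot be told apart.

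MALAT1 was the member with the most uniform difference from clean air in A549 cells. In the CA libraries it had 42.7, 36.4, 57.0 and 69.4 CPM. It had 181, 161 and 170 CPM after SP and 203, 179, 151 and 187 CPM after SOANAP-SP. The 4 SOAβPIN-SP libraries were the most scattered, at 248, 116, 201 and 80.7 CPM. All 11 exposed libraries lay above all 4 CA libraries.

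The fitted log2 fold changes of MALAT1 in A549 cells were 1.73 ± 0.33 (SE) for SP, 1.65 ± 0.31 for SOAβPIN-SP and 1.81 ± 0.31 for SOANAP-SP, or 3.32-, 3.13- and 3.50-fold, and each passed both thresholds used here, 0.05 for the adjusted p and 0.5 for the size of the log2 fold change. Within an experiment the log2 ratio to CA was 1.21 for SP, 1.15 for SOAβPIN-SP and 1.83 for SOANAP-SP, so the single pairs also pointed upwards, below the pooled value for SP and SOAβPIN-SP. The lowest exposed library and the lowest CA library came from the same experiment. With any library left out the fold changes stayed between 1.37 and 1.99 on the log2 scale. TALAM1, an antisense RNA that covers 77.8% of MALAT1 on the other strand, is not among the genes of the count table.

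In EA.hy926 cells MALAT1 was lower and its groups overlapped. The CA libraries had 19.5, 26.5, 22.5 and 11.1 CPM and the SP libraries 24.6, 24.5 and 20.2 CPM. After SOAβPIN-SP it had 57.4, 32.8, 22.0 and 27.4 CPM, and after SOANAP-SP 25.2, 27.6, 37.6 and 32.0 CPM. The log2 fold changes of 0.23 ± 0.31 for SP, 0.82 ± 0.28 for SOAβPIN-SP and 0.63 ± 0.28 for SOANAP-SP did not pass the thresholds. Limma-voom called SOAβPIN-SP and SOANAP-SP, and DESeq2 called SOAβPIN-SP. The within-experiment log2 ratios were 1.14 for SP, 0.05 for SOAβPIN-SP and 0.17 for SOANAP-SP, and so did not keep the pooled order of the aerosols. The SP pair rested on the lowest CA library.

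**Figure D1:**
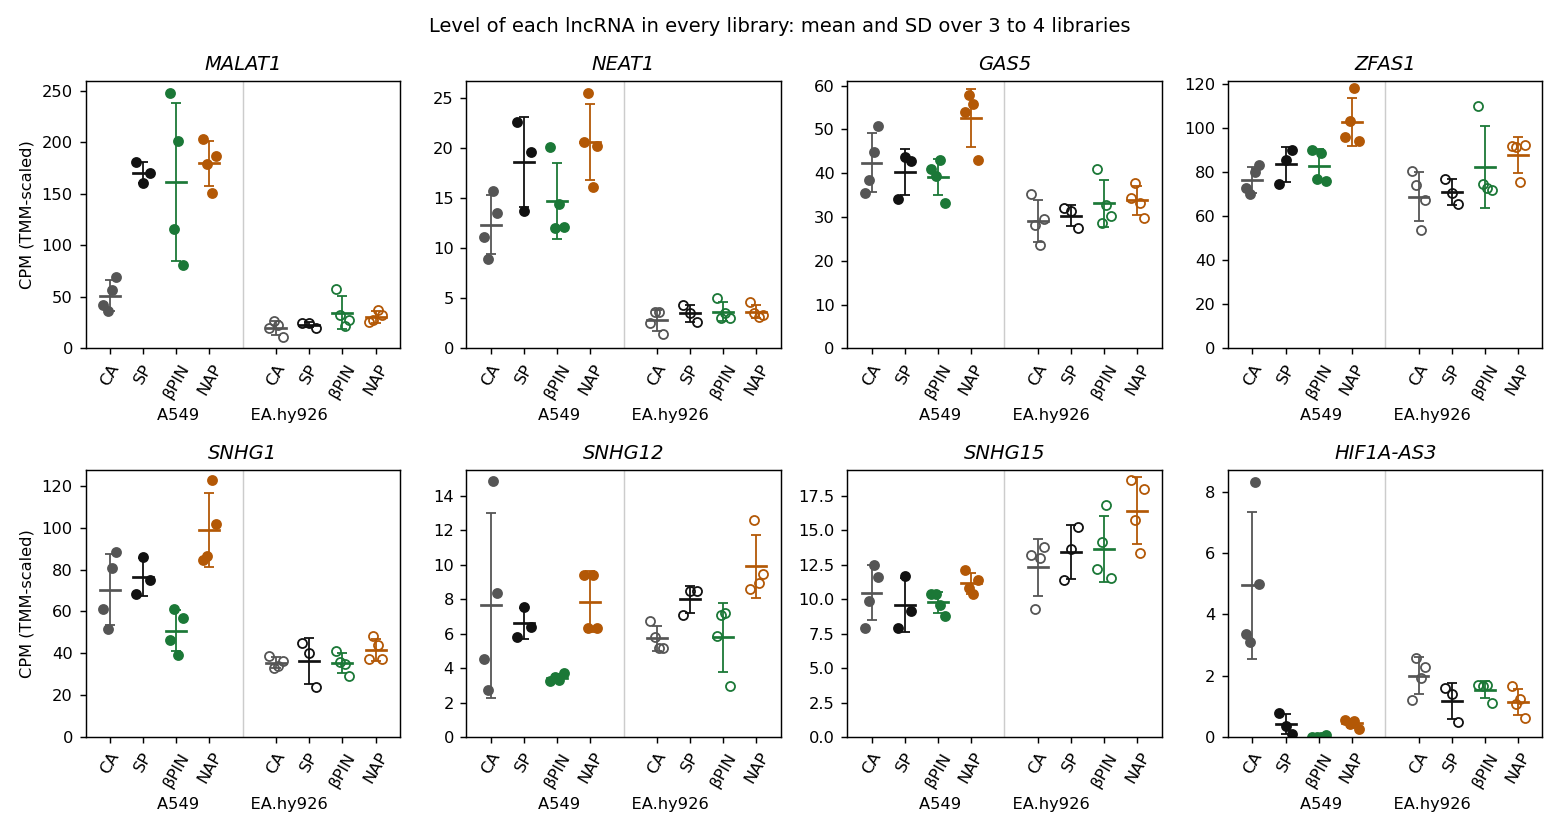
Level of each lncRNA in CPM after TMM scaling (y axis, linear from 0) in every library, by exposure (βPIN and NAP stand for SOAβPIN-SP and SOANAP-SP), with A549 in filled and EA.hy926 in open points and the mean and SD of each group drawn as lines. MALAT1 in A549 cells lies between 36.4 and 69.4 CPM in clean air and between 80.7 and 248 CPM after exposure, and HIF1A-AS3 lies at 3.10 to 8.30 CPM in clean air and at most at 0.778 CPM after exposure.

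NEAT1 in A549 cells had 11.1, 8.95, 15.7 and 13.6 CPM in CA and 20.6, 25.5, 16.1 and 20.2 CPM after SOANAP-SP, with no overlap. It had 22.6, 13.7 and 19.6 CPM after SP and 20.1, 12.05, 14.4 and 12.2 CPM after SOAβPIN-SP, and both of these groups overlapped CA. NEAT1 thus rose after SOANAP-SP (log2 fold change 0.75 ± 0.20, 1.68-fold), while the values for SP (0.61 ± 0.22) and SOAβPIN-SP (0.23 ± 0.20) did not pass. For SP the value came to 0.78 and passed without SP replicate 2, the SP library that shared its experiment with CA, and to 0.74 without CA replicate 3. The within-experiment log2 ratios were 0.02 for SP, 0.44 for SOAβPIN-SP and 0.39 for SOANAP-SP. Those for SP and SOANAP-SP were smaller than the pooled values. In EA.hy926 cells NEAT1 rested on 17 to 60 counts per library, with 1.44 to 5.05 CPM, and log2 fold changes of 0.35 to 0.40 that did not pass.

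MALAT1 and NEAT1, neighbours on chromosome 11, varied together across the 15 libraries of A549 cells (Pearson r 0.78, Spearman rho 0.76 of log2 CPM, and r 0.70 without the 2 libraries farthest from the median of NEAT1). Libraries share depth, experiment and exposure, so r is a description. In EA.hy926 cells r was 0.74 but rho 0.38, and r fell to 0.13 without CA replicate 4 and SOAβPIN-SP replicate 1, so the relation rested on those libraries. GAS5 and ZFAS1 varied together in both lines, with r of 0.81 in A549 and 0.84 in EA.hy926 cells, and 0.70 and 0.61 without the 2 libraries farthest from the median of GAS5.

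**Figure D2:**
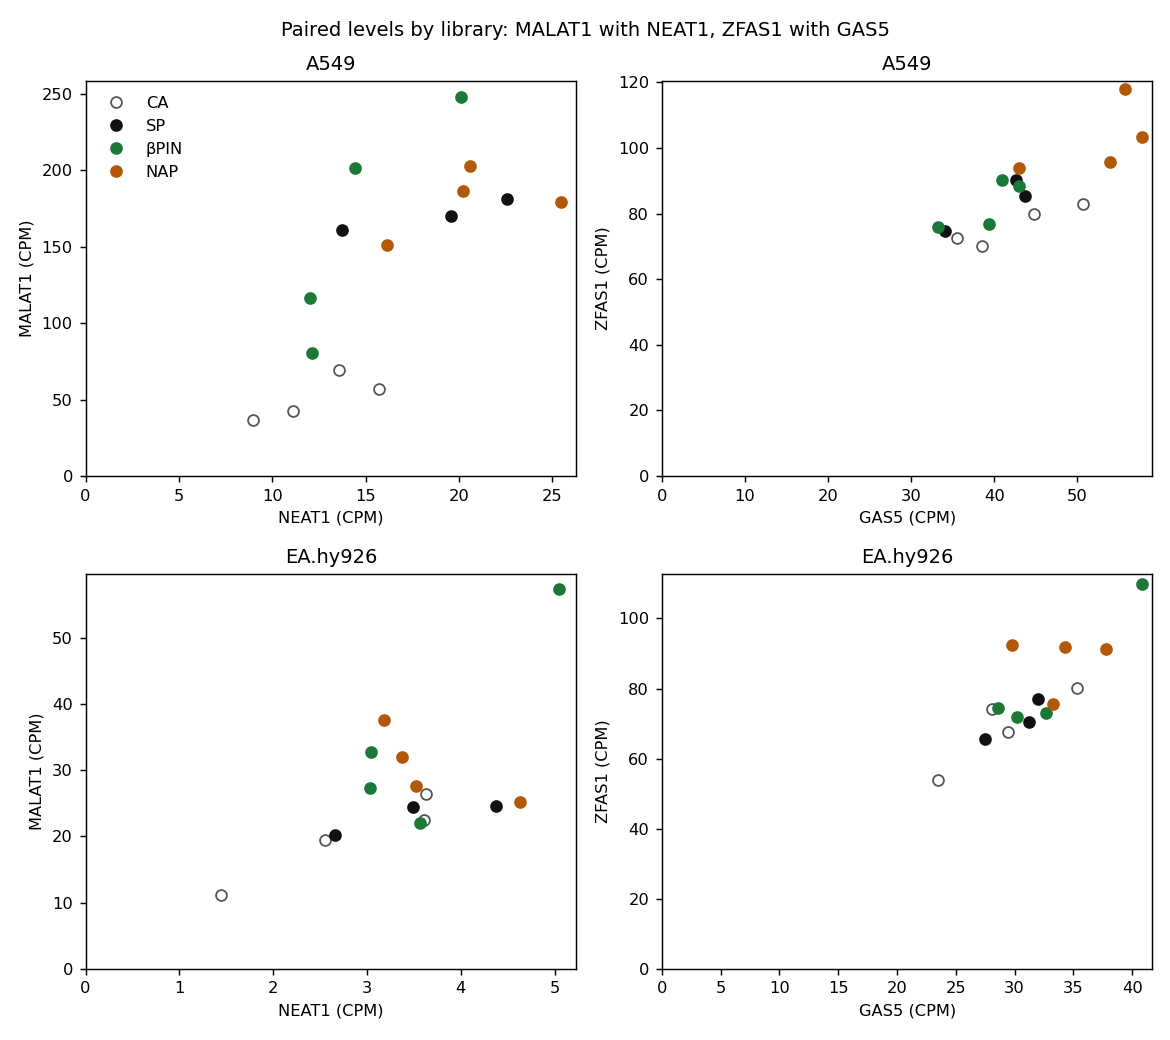
MALAT1 against NEAT1 (left) and ZFAS1 against GAS5 (right) in CPM, 1 point per library, in A549 (top) and EA.hy926 cells (bottom), coloured by exposure with CA as open points. In A549 cells all CA points lie under 70 CPM of MALAT1, and in EA.hy926 cells the MALAT1 and NEAT1 relation is drawn out by 1 CA and 1 SOAβPIN-SP library (r 0.74 with them, 0.13 without).

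HIF1A-AS3 was close to 0 in exposed A549 cells. It lies at chr14:61707298-61751163 on the minus strand, opposite HIF1A, and 299 bases of its annotated exons overlap those of HIF1A, which encodes the oxygen-regulated subunit of a hypoxia factor. The CA libraries had 37, 36, 78 and 62 counts, the SP libraries 8, 3 and 1 and the SOANAP-SP libraries 6, 6, 5 and 3. After SOAβPIN-SP there were 0, 0, 0 and 1 counts. A count of 0 allows up to 0.389, 0.196 and 0.276 CPM (3 counts) in the first 3 of these libraries, against 3.37, 3.10, 8.30 and 5.00 CPM in CA.

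Over pooled counts, the HIF1A-AS3 level was 9.28% of CA after SP and 9.17% after SOANAP-SP, that is 10.8-fold (95% exact interval 6.04 to 21.2) and 10.9-fold (6.89 to 18.2) lower. After SOAβPIN-SP it was 0.434% of CA from 1 count, 231-fold lower with an interval of 41.0 to 9151. These intervals cover counting error only and not the spread between libraries. HIF1A-AS3 passed the count filter in A549 cells only through the CA libraries, so it had to differ, and all 3 fitted differences passed. In the 3 within-experiment pairs the counts were 62 against 3 (SP), 36 against 1 (SOAβPIN-SP) and 78 against 6 (SOANAP-SP). Whether reads were counted by strand is not given in the sources used here, so reads of the shared stretch may not be told apart. HIF1A had the opposite sign in A549 cells, with log2 fold changes of 0.51 ± 0.09 (SP), 0.74 ± 0.08 (SOAβPIN-SP) and 0.40 ± 0.08 (SOANAP-SP), of which the first 2 passed. Its other neighbour SNAPC1, a subunit of the complex that activates small nuclear RNA genes, fell by 1.28, 1.56 and 1.28 on the log2 scale.

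HIF1A-AS3 in EA.hy926 cells had 5 to 27 counts in every library, too few to test. The levels were 1.20, 2.58, 1.94 and 2.29 CPM in CA, and none of the 11 exposed libraries was above the CA median, though every exposed group overlapped CA. The pooled level was 64.2% of CA after SP (ratio 0.642, exact interval 0.447 to 0.913), 78.5% after SOAβPIN-SP (0.564 to 1.09) and 0.5999 of CA after SOANAP-SP (0.425 to 0.842), again for counting error only. In these cells HIF1A rose after all 3 aerosols (0.66 ± 0.08, 0.58 ± 0.08 and 0.55 ± 0.08 for SP, SOAβPIN-SP and SOANAP-SP).

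GAS5, whose introns hold box C/D snoRNAs, had 35.5, 38.5, 44.8 and 50.7 CPM in CA and 54.0, 57.8, 55.7 and 42.9 CPM after SOANAP-SP in A549 cells, with 1 SOANAP-SP library inside the CA range. Its log2 fold changes were -0.08 ± 0.14 (SP), -0.12 ± 0.12 (SOAβPIN-SP) and 0.31 ± 0.12 (SOANAP-SP). ZFAS1, host of SNORD12, SNORD12B and SNORD12C, had 72.6, 70.1, 79.8 and 83.0 CPM in CA and 95.8, 103, 118 and 94.0 CPM after SOANAP-SP, with no overlap. Its value of 0.43 ± 0.09 for SOANAP-SP passed on the adjusted p but was smaller than 0.5, and those for SP (0.13 ± 0.10) and SOAβPIN-SP (0.11 ± 0.09) were near 0. Of the exons of ZFAS1, 3.0% overlap the opposite gene ZNFX1, where the same limit on strand applies.

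SNHG1, which hosts SNORD22, SNORD25 and other box C/D snoRNAs, had 61.1, 51.4, 80.8 and 88.3 CPM in CA, 46.6, 61.1, 39.1 and 56.7 CPM after SOAβPIN-SP and 84.8, 86.4, 123 and 102 CPM after SOANAP-SP in A549 cells. SOAβPIN-SP lay low and SOANAP-SP high, and both overlapped CA. The log2 fold changes were -0.46 ± 0.18 for SOAβPIN-SP, 0.49 ± 0.17 for SOANAP-SP, which missed the size threshold, and 0.12 ± 0.19 for SP. For SOANAP-SP limma-voom gave 0.50 and called it, and it passed without CA replicate 3 or 4 or SOANAP-SP replicate 1 or 2 (0.55 to 0.62). For SOAβPIN-SP the value passed without SOAβPIN-SP replicate 2 (-0.56) or CA replicate 2 (-0.59). The CA library of the experiment shared with SOAβPIN-SP was the lowest of the 4, and within that experiment the log2 ratio was 0.14, opposite in sign to the pooled value.

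SNHG12, host of SNORA44, SNORA61 and SNORD99, spread widely in A549 clean air libraries, at 4.55, 2.75, 14.9 and 8.39 CPM (32 to 140 counts). The SOAβPIN-SP libraries lay close together at 3.25, 3.47, 3.31 and 3.72 CPM, inside the CA range. The log2 fold change of -1.12 ± 0.38 passed, but was lost with limma-voom (-0.82), with no count filter, with a fit to these groups only and without any 1 of 10 libraries, and was -0.61 without CA replicate 3. Within the shared experiment SNHG12 was higher after SOAβPIN-SP than in CA (3.72 against 2.75 CPM, log2 ratio 0.44). TRNAU1AP, the gene next to SNHG12 whose exons overlap it by 8 bases on the other strand, fell by 0.53 on the log2 scale after SOAβPIN-SP.

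SNHG12 was the member that passed in EA.hy926 cells. It had 6.72, 5.83, 5.20 and 5.17 CPM in CA and 8.60, 12.6, 8.95 and 9.49 CPM after SOANAP-SP, a log2 rise of 0.79 ± 0.20 (1.73-fold) with no overlap. The SP libraries, at 7.07, 8.47 and 8.45 CPM, also lay above CA, with a log2 fold change of 0.47 ± 0.22 that did not pass, and SOAβPIN-SP was at 0.00 ± 0.22. Within experiments the log2 ratios were 0.71 (SP), -0.99 (SOAβPIN-SP) and 0.73 (SOANAP-SP).

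SNHG15, host of SNORA9, did not pass in either line. In A549 cells it ranged from 7.88 to 12.4 CPM over all libraries and its log2 fold changes were -0.13 ± 0.16, -0.10 ± 0.15 and 0.10 ± 0.15 for SP, SOAβPIN-SP and SOANAP-SP. In EA.hy926 cells it had 13.2, 9.27, 12.9 and 13.7 CPM in CA and 18.6, 15.8, 13.3 and 18.0 CPM after SOANAP-SP, with a log2 fold change of 0.41 ± 0.15 that was under the size threshold. GAS5, SNHG1 and ZFAS1 had values of 0.21 ± 0.12, 0.23 ± 0.15 and 0.35 ± 0.14 for SOANAP-SP in EA.hy926 cells, and none passed.

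**Figure D3:**
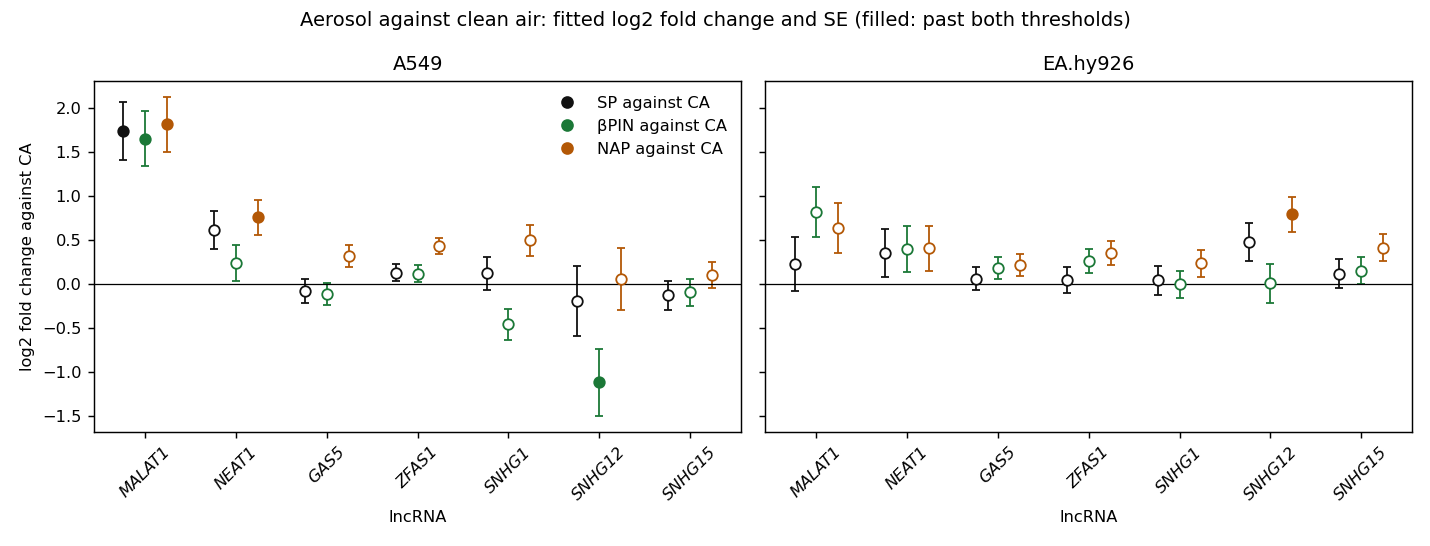
Fitted log2 fold change against CA (y axis) with its SE for 7 lncRNAs after SP, SOAβPIN-SP (βPIN) and SOANAP-SP (NAP) in A549 (left) and EA.hy926 cells (right). Filled points passed both thresholds: MALAT1 for all 3 aerosols (1.65 to 1.81), NEAT1 for SOANAP-SP and SNHG12 for SOAβPIN-SP in A549 cells, and SNHG12 for SOANAP-SP in EA.hy926 cells.

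In all, 8 of 24 member comparisons with CA passed in A549 cells, 4 up and 4 down. They were 2 of 8 members for SP, where 5.99% of all genes tested passed, 3 of 8 for SOAβPIN-SP (13.2% of all genes) and 3 of 8 for SOANAP-SP (18.2%). In EA.hy926 cells 1 of 21 passed, 0 of 7 for SP (9.83% of all genes), 0 of 7 for SOAβPIN-SP (11.2%) and 1 of 7 for SOANAP-SP (14.8%). Nothing is read from these shares, since the members were named with these results known. After SOANAP-SP 7 of 8 tested members in A549 and 7 of 7 in EA.hy926 cells had a positive value, at a median log2 fold change of 0.37 and 0.40 against 0.00 over all genes in both lines. After SP 7 of 7 in EA.hy926 cells were positive as well. Where no member passed, in EA.hy926 cells after SP and SOAβPIN-SP, 1 of 7 had an unadjusted p under 0.05 by edgeR each time. Of all 10709 genes, 3384 did for SP and 3760 for SOAβPIN-SP. Limma-voom and DESeq2 called 1 member each for SOAβPIN-SP and 0 for SP. The 3 aerosols of a cell line share its CA libraries.

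Over the within-experiment pairs, the sign of the log2 ratio was that of the pooled fold change in 18 of 24 member comparisons in A549 and in 17 of 21 in EA.hy926 cells. MALAT1 and HIF1A-AS3 kept their direction in all 3 A549 pairs. Each pair holds 1 library against 1 and has no replicate check.

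**Figure D4:**
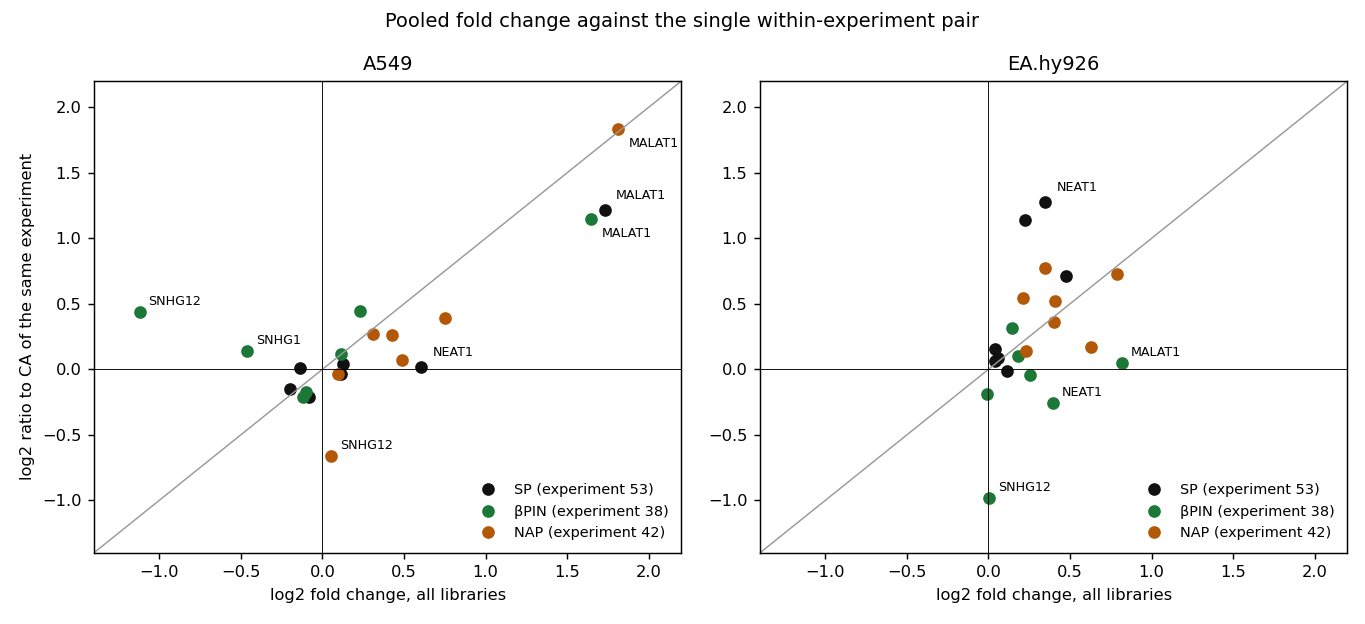
Log2 ratio of the aerosol library to the CA library of the same experiment (y axis) against the fitted log2 fold change over all libraries (x axis) for 7 lncRNAs in A549 (left) and EA.hy926 cells (right), coloured by aerosol, with the line of equality. In A549 cells MALAT1 stays upper right (1.15 to 1.83 within experiments), while SNHG12 after SOAβPIN-SP is at -1.12 pooled and 0.44 within the experiment.

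The comparisons between aerosols are not known to have been used to choose the members, though they share the exposed libraries with those that were, and their tests are edgeR's quasi-likelihood tests with Benjamini-Hochberg adjustment over all genes tested in a cell line. They compare whole exposures. The coating cannot be told apart from ageing (in comparisons with SP), the gas phase, the deposited mass or the experiments. In A549 cells, 3 of 8 members passed for SOANAP-SP against SOAβPIN-SP, where 7.48% of all genes passed, and all 8 had a higher value after SOANAP-SP. HIF1A-AS3 was among the 3, with counts far under the filter in both groups. None of 8 passed for SOANAP-SP against SP (7.13% of all genes) or for SOAβPIN-SP against SP (0.0679%). In these comparisons 2 and 3 of 8 members had an unadjusted p under 0.05 by edgeR, against 3460 and 1306 of all 11775 genes. Limma-voom called 0 members in both, and DESeq2 called 0 and 1.

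SNHG1 was 1.94-fold higher after SOANAP-SP than after SOAβPIN-SP in A549 cells (log2 0.95 ± 0.18, adjusted p = 0.00276 by edgeR). All 4 SOANAP-SP libraries (84.8 to 123 CPM) lay above all 4 SOAβPIN-SP libraries (39.1 to 61.1 CPM), and the call held with each library left out (0.84 to 1.06). SNHG12 followed with 2.25-fold (1.17 ± 0.38, adjusted p = 0.0440 by edgeR), at 6.31 to 9.41 against 3.25 to 3.72 CPM. Its call was lost without any 1 of 12 libraries, at adjusted p-values that rose to 0.109, and with no count filter. GAS5 (0.43 ± 0.12, adjusted p = 0.0214 by edgeR) and ZFAS1 (0.31 ± 0.09, adjusted p = 0.0263 by edgeR) passed on the adjusted p but not on size. NEAT1 had 0.52 ± 0.20 (adjusted p = 0.0726 by edgeR) and was called by limma-voom at 0.57. TRNAU1AP, the neighbour of SNHG12, was also higher after SOANAP-SP than after SOAβPIN-SP in A549 cells, by 0.61 on the log2 scale.

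HIF1A-AS3 had 20 pooled counts after SOANAP-SP against 1 after SOAβPIN-SP in A549 cells, a ratio of 21.1 with an exact interval of 3.38 to 877 for counting error. The fitted test passed (adjusted p = 0.0164 by edgeR) and missed the threshold without SOAβPIN-SP replicate 2 (adjusted p = 0.0563 by edgeR). Both groups had counts far under the filter, which HIF1A-AS3 passed in A549 cells only through the CA libraries. The fitted results for HIF1A-AS3 between aerosols are therefore a description and carry no weight as tests. Against SP, SOAβPIN-SP had 1 count against 12, a 21.4-fold lower level (3.17 to 915), which edgeR did not call (adjusted p = 0.207) and DESeq2 did. SP and SOANAP-SP did not differ detectably at this depth, with a ratio of 0.988 (0.460 to 2.22).

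MALAT1 showed no difference between aerosols in A549 cells that passed. The log2 differences were 0.16 ± 0.30 for SOANAP-SP against SOAβPIN-SP (95% interval -0.42 to 0.75, adjusted p = 0.736 by edgeR), 0.08 ± 0.32 for SOANAP-SP against SP (-0.55 to 0.71, adjusted p = 0.900) and -0.09 ± 0.32 for SOAβPIN-SP against SP (-0.72 to 0.54, adjusted p = 0.962). With intervals this wide the values do not show that the aerosols acted alike.

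In EA.hy926 cells no member passed between aerosols, where 0.598% of all genes did for SOANAP-SP against SOAβPIN-SP, 0.794% for SOANAP-SP against SP and 0% for SOAβPIN-SP against SP. For the last comparison edgeR, limma-voom and DESeq2 each called 0 genes, and 355 of 10709 genes had an unadjusted p under 0.05 by edgeR. SNHG12 came closest, 1.72-fold higher after SOANAP-SP than after SOAβPIN-SP (log2 0.78 ± 0.20, adjusted p = 0.0658 by edgeR), and DESeq2 called it. For SNHG12 all 4 SOANAP-SP libraries (8.60 to 12.6 CPM) lay above the SOAβPIN-SP libraries (2.94 to 7.23 CPM), as they did in A549 cells. In each of the 3 comparisons 1 of 7 members had an unadjusted p under 0.05 by edgeR, and limma-voom called none. Of all 10709 genes, 1325 had such a p for SOANAP-SP against SOAβPIN-SP and 1447 for SOANAP-SP against SP.

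The cell lines differed in clean air, where 4 of the 7 members other than HIF1A-AS3 passed, all lower in EA.hy926 than in A549 cells. Of all 12599 genes 70.7% passed, 4773 of them lower and 4134 higher in EA.hy926 cells. NEAT1 differed most, with a log2 difference of -2.31 ± 0.24 (adjusted p = 2.49e-10 by edgeR), from 12.3 ± 2.95 (SD, n = 4) to 2.81 ± 1.04 CPM. MALAT1 differed by -1.54 ± 0.33 (adjusted p = 1.35e-04 by edgeR), SNHG1 by -1.15 ± 0.18 (9.73e-07) and GAS5 by -0.70 ± 0.13 (1.31e-05). HIF1A-AS3 had 36 to 78 counts in A549 against 17 to 27 in EA.hy926 cells, with no overlap. It entered the fit over both lines only through the A549 CA libraries, so it had to differ and its p is not given. ZFAS1 (-0.31 ± 0.12, adjusted p = 0.0202 by edgeR) missed the size threshold, and SNHG12 (-0.55 ± 0.31, adjusted p = 0.0987 by edgeR) and SNHG15 (0.07 ± 0.15, adjusted p = 0.653 by edgeR) did not pass.

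Per kilobase of annotated exon, the order in A549 clean air libraries was SNHG1 (17.7 ± 4.29 CPM per kb, SD, n = 4), ZFAS1 (9.19 ± 0.725), GAS5 (8.59 ± 1.37), MALAT1 (4.92 ± 1.42), SNHG15 (2.65 ± 0.509), SNHG12 (1.79 ± 1.259), HIF1A-AS3 (0.979 ± 0.474) and NEAT1 (0.542 ± 0.130). The ranges of ZFAS1 and GAS5 overlapped, and so did those of each neighbouring pair from SNHG15 to NEAT1. In EA.hy926 cells SNHG1 (8.94 ± 0.649), ZFAS1 (8.28 ± 1.36) and GAS5 (5.90 ± 0.985) again came first, and HIF1A-AS3 (0.397 ± 0.118) and NEAT1 (0.123 ± 0.0457) last. There SNHG15 (3.12 ± 0.519) stood above MALAT1 (1.90 ± 0.624), though their ranges overlapped. Lengths are unions over all annotated transcripts, up to 22767 bases for NEAT1, so they understate genes whose short isoforms dominate. MALAT1 and the long isoform of NEAT1 lack a poly-A tail, so poly-A selection may capture them unlike the other members. Their place in this order therefore need not be their rank in the cells.

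The response to the aerosols was compared between the cell lines as an interaction over all 30 libraries, again as a description. Of the members, 1 of 8 passed for SP (3.37% of all genes tested), 1 of 8 for SOAβPIN-SP (10.1%) and 1 of 8 for SOANAP-SP (11.4%), HIF1A-AS3 each time. HIF1A-AS3 was in this fit only through the A549 CA libraries, so its calls carry no weight. The MALAT1 response in EA.hy926 cells was smaller than in A549 cells by 1.51 ± 0.48 on the log2 scale for SP, 0.85 ± 0.45 for SOAβPIN-SP and 1.19 ± 0.45 for SOANAP-SP, none of which passed with edgeR. DESeq2 called the difference for SP and SOANAP-SP, as did edgeR without A549 SOAβPIN-SP replicate 4 or EA.hy926 CA replicate 4 (-1.51 and -1.71 for SP, -1.19 and -1.39 for SOANAP-SP).

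Other genes of the same pathways gave the setting. Of 21 further snoRNA host lncRNAs tested in A549 cells, none rose and 3 fell for SP and for SOAβPIN-SP, and 2 rose and 3 fell for SOANAP-SP, with median log2 fold changes of 0.02, -0.01 and 0.19 against 0.00, 0.01 and 0.00 over all genes. SNHG20, SNHG10 and CYTOR were the 3 that fell each time, SNHG20 by 0.94, 1.65 and 0.89 for SP, SOAβPIN-SP and SOANAP-SP. In EA.hy926 cells SNHG7 rose each time (0.89, 0.96 and 1.45) and SNHG20 fell each time (by 0.77, 0.76 and 0.81), among 2 up and 1 down of 21 for SP, 4 and 1 for SOAβPIN-SP and 2 and 2 for SOANAP-SP. The called hosts all fell for SP and SOAβPIN-SP in A549 cells and went both ways in the other comparisons. The counts in this and the following lists are to be read against the share of all genes called. For SP, SOAβPIN-SP and SOANAP-SP it was 5.99%, 13.2% and 18.2% in A549 cells. In EA.hy926 cells it was 9.83%, 11.2% and 14.8%.

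Of 22 protein-coding snoRNA hosts, 1 rose for SP and 1 rose and 1 fell for SOAβPIN-SP in A549 cells, and none passed for SOANAP-SP or in EA.hy926 cells. GNL3, a nucleolar GTP-binding protein, was the host that rose (0.58 and 0.79), and EIF4A2, a translation initiation helicase, fell by 0.79. The 16 proteins of snoRNA particles gave 1 call in 6 comparisons with CA, ZNHIT6, an assembly factor, which fell by 0.79 for SOANAP-SP in A549 cells. The median log2 fold changes of the protein-coding hosts lay between -0.07 and 0.20 and those of the particle proteins between -0.14 and 0.05.

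The protein partners of MALAT1 and NEAT1 gave calls in both directions in A549 cells, to be read against the 5.99%, 13.2% and 18.2% of all genes called for SP, SOAβPIN-SP and SOANAP-SP. Of 25 paraspeckle proteins tested in A549 cells, 0 rose and 1 fell for SP, 1 and 2 for SOAβPIN-SP and 1 and 2 for SOANAP-SP, and HNRNPH3 fell each time (by 0.56, 0.68 and 0.58). In EA.hy926 cells 0 and 1, 1 and 2 and 1 and 1 of 23 did. Of 21 nuclear speckle proteins, SRSF6, a splicing factor, rose in A549 cells for SP (0.58) and SOANAP-SP (0.67), and for SOAβPIN-SP 4 fell, led by DDX39B (by 0.89), an RNA export helicase, and SRSF7 (by 0.70). For SOANAP-SP in A549 cells 2 rose and 2 fell. The kinases CLK1 and CLK4, which phosphorylate splicing factors, rose in EA.hy926 cells for all 3 aerosols (CLK1 0.67, 0.83 and 1.05, CLK4 0.78, 0.84 and 1.12), whereas in A549 cells both fell by 0.59 for SOAβPIN-SP. CLK2, of the same family, fell for SOANAP-SP in both lines, by 0.62 in EA.hy926 and by 0.55 in A549 cells.

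Of 14 other nuclear and regulatory lncRNAs tested in A549 cells none rose, and 1, 3 and 4 fell for SP, SOAβPIN-SP and SOANAP-SP. TUG1 was among them each time (0.52, 0.84 and 0.67 lower on the log2 scale). In EA.hy926 cells MIR22HG, the host of a microRNA, rose for all 3 (0.76, 0.81 and 1.28) among 11 tested, and NORAD, PURPL and OIP5-AS1 fell for SOANAP-SP. Of 18 genes of nonsense-mediated decay and its stress-gene targets, none rose in A549 cells and 1, 4 and 1 fell, with GADD45B (by 1.79) and ATF3 (by 1.49) the furthest for SOAβPIN-SP. ATF3 and ATF4, stress transcription factors, rose in EA.hy926 cells for all 3 aerosols (ATF3 1.71, 1.95 and 2.49, ATF4 0.65, 0.72 and 0.96), and the decay factor SMG8 fell by 0.51 for SOANAP-SP. Of 13 tested neighbours of the members in A549 cells 1 rose and 1 fell for SP, 2 and 2 for SOAβPIN-SP and 1 and 2 for SOANAP-SP, with TAF6L, next to SNHG1, at 0.71 and 0.53 for the coated particles. In EA.hy926 cells ZBTB37, the gene opposite the GAS5 start, fell by 1.19 for SOANAP-SP.

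By Pearson correlation of log2 CPM over the 15 libraries of a line, the genes most like MALAT1 in A549 cells were CAD (0.94), NSMCE4A (0.93), MAP3K6 (0.91), LRBA (0.90) and THOC6 (0.90). Among those most like HIF1A-AS3 were ACHE (0.95), TCEAL9 (0.95), TAF7 (0.94) and EIF2AK4 (0.94). NEAT1 was most like BRD9 (0.88) and PBX2 (0.86), and GAS5 most like STK16 (0.92) and CDKN3 (0.89). In EA.hy926 cells MALAT1 was most like OGDHL (0.91) and SNW1 (0.86), NEAT1 most like DDB1 (0.83) and GAS5 most like FCHO1 (0.90).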

How the data were processed

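Poly-A RNA of 30 libraries, 15 per cell line, was sequenced. The deposited counts are whole reads per gene that the authors obtained by trimming (cutadapt), alignment (STAR), removal of duplicates by molecular identifier and htseq-count on unique reads. The deposited normalized signal is the same counts over DESeq2 size factors. The study's methods name the human build GRCh38 and the submitters' processing notes GRCm38. The gene IDs are human.

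A gene entered the tests of a line if 3 or more of its libraries had a count of 30 or more (11775 genes in A549, 10709 in EA.hy926 and 12599 over both). This kept all 8 members in A549 and 7 of them in EA.hy926. The tests used edgeR 4.0.16 in R 4.3.3 with TMM scaling, a robust quasi-likelihood fit on exposure and Benjamini-Hochberg adjustment within each comparison. The study's methods describe a correction for the sequencing batch. That batch is not in the labels, so no fit here adjusts for it. Standard errors were derived from the log2 fold change and F. Members and gene lists were chosen with earlier results of these data known. From each other list the called genes with the largest change were named, and for 4 members the genes with the highest correlation. Some items are not reported here. Coordinates and exon lengths are from GENCODE v44. The steps were tested on simulated data.

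Groups came from the labels. The same replicate number in different groups always meant different experiments, and such libraries deviated from their group means with correlations down to -0.45, so numbers were not taken as pairs. The alternatives were limma-voom (limma 3.58.1), DESeq2 1.42.0, other scalings, other low-count filters, a block for replicate, coculture or experiment, a fit to the groups compared, limma on log2 of the deposited normalized values plus 1, and leaving out each library. At this depth genes under the filter were not tested.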

Additional observations from a re-analysis of the deposited data

Results flagged for a closer look

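Of 48 member groups of 4 libraries, 4 held a library far from the others, where chance alone flags about 1 in 20. ZFAS1 in EA.hy926 cells had 110 CPM in SOAβPIN-SP replicate 1, against 71.8 to 74.3 CPM in the other SOAβPIN-SP libraries, and 75.5 CPM in SOANAP-SP replicate 3, against 91.4 to 92.4 CPM. HIF1A-AS3 in EA.hy926 cells had 1.13 CPM in SOAβPIN-SP replicate 4, against 1.66 to 1.68 CPM, a gap of 13 against 17 to 18 counts. HIF1A-AS3 in A549 cells had 0.0702 CPM in SOAβPIN-SP replicate 4, which is 1 count, against 0 in the other libraries of that group.

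SOAβPIN-SP replicate 1 of EA.hy926 cells was also the highest of its group for MALAT1 (57.4 CPM), NEAT1 (5.05 CPM) and GAS5 (40.9 CPM).

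The HIF1A-AS3 response differed between the cell lines by a fitted log2 difference (EA.hy926 minus A549) of 2.75 for SP, 6.93 for SOAβPIN-SP and 2.68 for SOANAP-SP, each past the thresholds in the fit to all 30 libraries. HIF1A-AS3 was in that fit only through the A549 CA libraries and had too few counts to test in EA.hy926 cells, so these values are a description and not a test of the difference. For SP the value was 2.33 and no longer past the threshold without A549 SP replicate 3. With counts near 0 in exposed A549 cells these values depend on the prior count, the SOAβPIN-SP value most of all.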

How the results depend on the processing

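In A549 cells 8 member comparisons with CA passed. This became 3 with a filter of 30 CPM in place of 30 counts, where fewer members were tested, and 7 to 9 with 1 library left out. Between aerosols the 3 calls became 1 with the CPM filter and 1 to 4 with 1 library left out, 1 without A549 SOAβPIN-SP replicate 2. In EA.hy926 cells the 1 call against CA became 3 with limma-voom, 2 with DESeq2, 3 with experiment as a random block and 2 with the deposited normalized values, and 1 to 2 with 1 library left out, 2 without SOAβPIN-SP replicate 1, 3 or 4 or CA replicate 2. Between aerosols 0 became 1 with DESeq2 and 1 with the replicate block (SNHG12, log2 0.80) and stayed 0 with any library left out. The 3 differences of response became 6 with DESeq2, 1 with the CPM filter and 2 to 5 with 1 library left out, 5 without A549 CA replicate 2, A549 SOAβPIN-SP replicate 4 or EA.hy926 CA replicate 4. The 5 differences of level in clean air, HIF1A-AS3 included, became 3 with the CPM filter and 5 to 6 with 1 library left out. The cause of the other changes was not tested.

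With the replicate block 7 comparisons with CA passed in A549 cells and 1 in EA.hy926 cells, the SNHG12 fall for SOAβPIN-SP being lost. Experiment as a fixed block left no residual degrees of freedom, so it was fitted as a random effect. No value past the threshold changed sign under any alternative. Library totals without TMM put the median of all genes at -0.12 and -0.15 for SOANAP-SP against SOAβPIN-SP and SP in A549 cells, and turned the MALAT1 difference between SOANAP-SP and SP from 0.08 to -0.060. They moved the median of all genes from -0.06 to 0.12 for the level of the lines in clean air. With 1 library left out, the MALAT1 difference in A549 cells between SOANAP-SP and SOAβPIN-SP ran from -0.058 to 0.45, the MALAT1 difference between SOAβPIN-SP and SP from -0.36 to 0.14, and that of SNHG15 between lines in clean air from -0.038 to 0.19.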
